A study of Mus musculus with 13 samples.

Results

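The 39 protein-coding genes of the 4 mouse Hox clusters were followed through embryonic foregut and trachea. They were taken as every symbol made of Hox, a cluster letter from a to d and a paralog number, which gave 39 of the 32793 gene symbols measured. Hoxa holds 11 of them on chromosome 6, Hoxb 10 on chromosome 11, Hoxc 9 on chromosome 15 and Hoxd 9 on chromosome 2. RNA was sequenced from dissected E10.5 foreguts (3 control and 3 mutant libraries) and E11.5 tracheas (3 control and 4 mutant libraries), each a separate embryo dissection. Every embryo carried 1 *Gli3TFlag* allele, and the mutants also carried a Cre allele, *Foxg1Cre*. With Cre, the *Gli3TFlag* allele makes the truncated repressor form of *Gli3*, a transcription factor of Hedgehog signalling. The Cre is placed in an endogenous gene, and it recombines foregut mesoderm and endoderm together from E8.5, so the controls differ from the mutants in the Cre allele as well as in the repressor. The labels give the strain as C57BL/6 and the methods an outbred background.

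Hox genes encode homeodomain transcription factors that give cells their position along the head to tail axis. Within a cluster the genes stand in the order of their paralog numbers, and low-numbered (3′) genes are switched on earlier and further towards the head than high-numbered (5′) genes. Retinoic acid activates the 3′ genes, Polycomb proteins hold unused genes silent, and Pbx, Meis and Pknox proteins of the TALE family bind DNA together with Hox proteins. In the mouse, *Hoxa5* is required for normal development of the trachea and lung, *Hoxc4* for the muscle of the esophagus, and the paralog 3 genes for pharyngeal organs. In limb buds, *Gli3* repressor limits the domain of the 5′ Hoxd genes.

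*Gli3* was read first as a check of the labels. On the CPM scale (counts per M of library size, scaled with TMM factors) it lay between 251 and 284 in the control foreguts and between 323 and 352 in the mutants. In the tracheas it lay between 192 and 266 in the controls and between 376 and 437 in the mutants, so no mutant library overlapped the controls of its stage (log2 fold change 0.35, adjusted p = 0.0588 at E10.5, and 0.87, adjusted p = 0.0102 at E11.5). The tables give 1 value for *Gli3*, in which transgene and endogenous transcripts are pooled. In M (mega-counts), the estimated counts of the libraries summed to between 16.7 and 17.99 M in the control foreguts, 15.37 and 17.02 M in the mutant foreguts, 12.55 and 13.93 M in the control tracheas and 9.647 and 15.92 M in the mutant tracheas. *Foxf1*, a marker of foregut mesenchyme, and *Nkx2-1*, a marker of respiratory epithelium, were present in every group, with mean levels of 24.4 to 93.2 and of 10.8 to 28.5 TPM (transcripts per M transcripts, a unit scaled for transcript length). Markers of the neural tube, where Hox genes are also active, summed to at most 1.48 TPM in any library. Some libraries stood apart. Mutant foregut replicate 3 had 464 TPM summed over 10 markers of neural crest, glia and enteric neurons, against 37.9 to 91.2 in the other foreguts. In that library *Tubb3*, a tubulin of neurons, reached 253.15 TPM. The same marker list summed to 60.7 to 124 TPM in the tracheas. Replicate 2 of the mutant tracheas had 2220 TPM over 12 cardiomyocyte markers, against 79.1 to 585 in the other tracheas. Over 8 blood and macrophage markers, control foregut replicate 3 had 5090 TPM against 33200 to 59800 in the other foreguts, and control trachea replicate 1 had 9680 TPM against 24900 to 81800 in the other tracheas. Summed over the Hox genes, these libraries had the highest level of the control foreguts (251 TPM) and the lowest of the control tracheas (127 TPM). The part of blood in the Hox values was not tested.

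Summed over the 4 clusters, the Hox genes formed a sharp step after paralog 5, while single clusters differed. The clusters lie at chr6:52155590-52260880 (Hoxa), chr11:96194316-96368256 (Hoxb), chr15:102921103-103036852 (Hoxc) and chr2:74668310-74765142 (Hoxd) on build GRCm38. The 15 genes of paralogs 1 to 5 had 53122 counts over the 13 libraries, and the 24 genes of paralogs 6 to 13 had 546. Paralogs 1 to 5 held 98.8% ± 0.289 of the summed Hox TPM in the control foreguts, 98.8% ± 0.705 in the mutant foreguts, 98.8% ± 0.438 in the control tracheas and 97.7% ± 0.746 in the mutant tracheas (mean ± SD, n = 3, 3, 3 and 4). In bulk tissue a lower level can mean fewer cells with the RNA or less RNA in each cell, and these cannot be told apart here. At a mean of at least 1 TPM, 15 Hox genes were listed in the control foreguts, 15 in the mutant foreguts, 12 in the control tracheas and 13 in the mutant tracheas. Not every low-numbered gene lay above the step. In the control tracheas *Hoxb1*, *Hoxd1* and *Hoxd4* had means of 0.473, 0.38 and 0.237 TPM, below *Hoxd8* at 0.55 TPM.

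**Figure D1:**
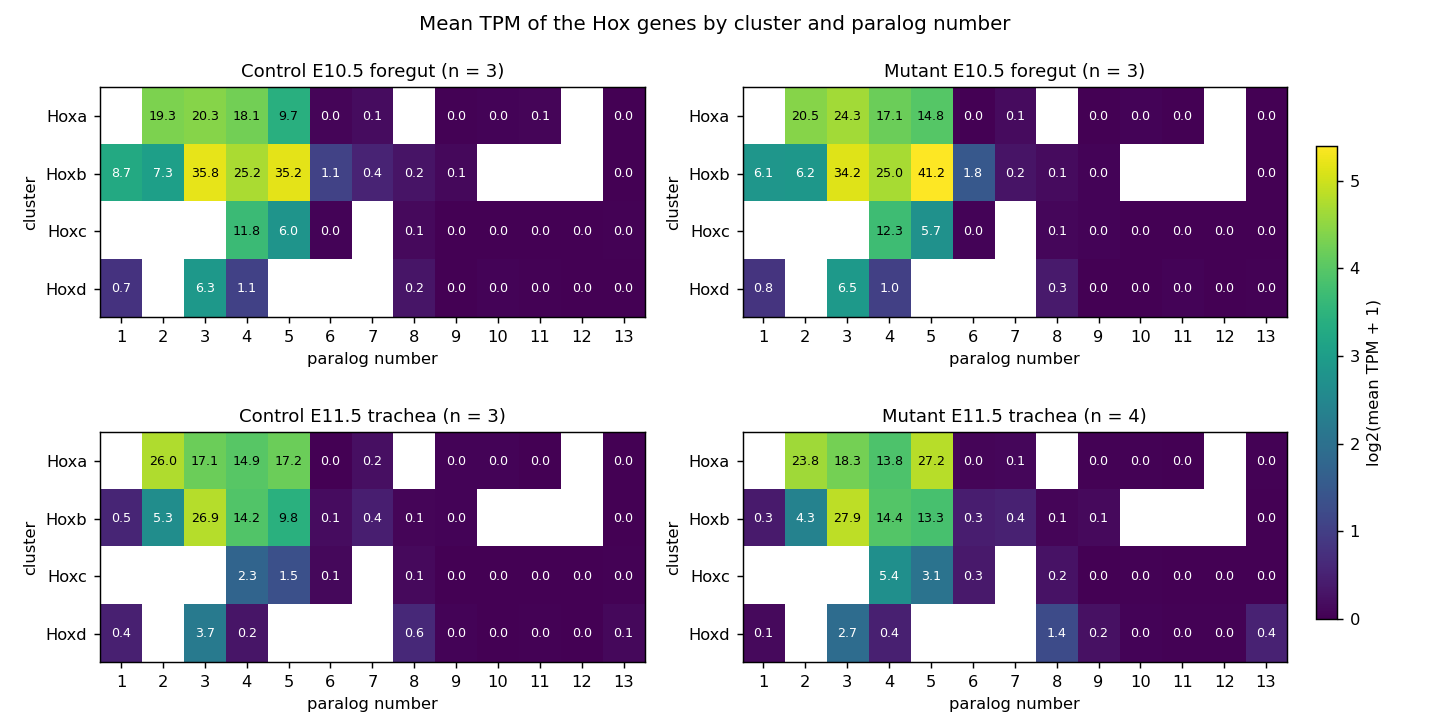
Mean TPM of each Hox gene by cluster (rows) and paralog number (columns) in the 4 groups, written in each cell and coloured by log2(mean TPM + 1). White cells are positions with no gene in that cluster or with no value shown, and in each group no cell to the right of paralog 5 exceeds 1.81 TPM (*Hoxb6* in mutant foreguts) while *Hoxb3* has 26.9 to 35.8 TPM.

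The step fell between adjacent genes of the Hoxa cluster. *Hoxa5* had a mean of 9.65, 14.8, 17.2 and 27.2 TPM in control foreguts, mutant foreguts, control tracheas and mutant tracheas, and its neighbour *Hoxa6* had 0.0467, 0, 0 and 0.0475 TPM. In the Hoxc cluster, *Hoxc5* had 5.99, 5.65, 1.49 and 3.14 TPM in the same order and *Hoxc6* 0.04, 0.04, 0.0767 and 0.285 TPM. The Hoxb cluster was less abrupt in the foregut. There *Hoxb6* had 0.43, 1.78 and 1.09 TPM in the controls and 0.50, 1.04 and 3.90 TPM in the mutants, the highest value being in replicate 3, the library rich in neural markers. In the tracheas *Hoxb6* was at 0.33 TPM or less in the controls and at 0.66 TPM or less in the mutants. *Hoxb7*, the next gene, did not exceed 0.80 TPM in any library.

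In the Hoxd cluster the last gene at a mean of 1 TPM differed between the genotypes in the trachea. *Hoxd4* was the last such gene in both foregut groups (1.06 and 1.03 TPM), *Hoxd3* in the control tracheas (3.69 TPM) and *Hoxd8* in the mutant tracheas (1.36 TPM). The difference rested on the threshold of 1 TPM, since *Hoxd8* had a mean of 0.55 TPM in the control tracheas, above a threshold of 0.5 TPM, and *Hoxd3* was the last gene above 2 TPM in both genotypes (2.74 TPM in the mutants). *Hoxd8* had 0.17, 1.20 and 0.28 TPM in the control tracheas and 1.18, 0.81, 1.56 and 1.88 TPM in the mutant tracheas. The ranges overlapped, because control replicate 2 lay within the range of the mutants. *Hoxd9*, its neighbour, had at most 0.06 TPM in the control tracheas and 0.06, 0.23, 0.30 and 0.16 TPM in the mutants, from 1 to 6 counts.

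Of the 24 genes of paralogs 6 to 13, 21 had under 10 counts in every library, and *Hoxb13*, *Hoxc11* and *Hoxc12* had none in any. A count of 0 allows up to 3 counts, which is 0.167 to 0.311 CPM depending on the library, for counting error only. The 3 genes that reached 10 counts were *Hoxb6*, *Hoxd8* and *Hoxd13*. *Hoxd13*, the last gene of its cluster, had 0, 2 and 3 counts in the control tracheas and 16, 13, 7 and 0 counts in the mutants, so mutant replicate 4 lay with the controls. In the foreguts it had at most 1 count in a library. *Hoxd13* had too few counts to enter the main tests, and it was singled out after its values were seen. The trachea fit without a filter on low counts included it among 34 Hox genes, and edgeR called none of them. The summed level of 8 limb bud markers was 55.5 to 62.3 TPM in the control tracheas and 113 to 137 TPM in the mutants, with 5 and 6 of the 8 at a mean of 1 TPM. Its part in the counts of *Hoxd13* was not tested.

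Levels were ranked by TPM, which is comparable between genes. In the control foreguts *Hoxb3*, a gene of pharyngeal and hindbrain patterning, led with 35.8 ± 6.19 TPM, followed by *Hoxb5* with 35.2 ± 7.20 TPM and *Hoxb4* with 25.2 ± 4.93 TPM (SD, n = 3). The ranges of these neighbours overlapped (31.15 to 42.80 for *Hoxb3*, 27.59 to 41.91 for *Hoxb5*, 22.27 to 30.86 for *Hoxb4*). *Hoxa3* (20.3 ± 0.399 TPM), *Hoxa2* (19.3 ± 1.41 TPM) and *Hoxa4* (18.1 ± 2.13 TPM) came next, and *Hoxa2* and *Hoxa4* did not differ beyond their spread. The mutant foreguts had the same leading genes, with *Hoxb5* first at 41.2 ± 23.5 TPM. That mean rested on replicate 3, which had 68.27 TPM against 26.27 and 29.12 TPM in replicates 1 and 2.

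In the tracheas the order changed. *Hoxb3* had the highest mean, with 26.9 ± 5.71 TPM in the controls and 27.9 ± 6.25 TPM in the mutants. *Hoxa2*, known for patterning the second pharyngeal arch, was next in the controls at 26.0 ± 4.39 TPM, and *Hoxa5* was next in the mutants at 27.2 ± 3.20 TPM. *Hoxa5* was the third gene of the controls at 17.2 ± 5.50 TPM, close to *Hoxa3* at 17.1 ± 3.49 TPM. *Hoxb5* had fallen to the seventh place, at 9.82 ± 1.24 TPM in the controls and 13.3 ± 6.98 TPM in the mutants.

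The clusters exchanged places between the stages. Hoxb held 52.5% ± 1.99 of the Hox TPM of the control foreguts and 49.7% ± 5.65 of the mutant foreguts, and Hoxa 35.4% ± 3.12 and 38.4% ± 3.38. In the tracheas Hoxa held 54.6% ± 2.17 in the controls and 54.6% ± 4.85 in the mutants, and Hoxb 39.0% ± 2.07 and 36.8% ± 4.41. The Hoxb share of every foregut (46.3% to 56.2%) was above that of every trachea (32.7% to 42.8%). The Hoxc share was 7.25%, 8.91% and 8.55% in the control foreguts and 8.59%, 9.20% and 6.42% in the mutant foreguts. It was 5.56%, 1.65% and 1.56% in the control tracheas and 4.57%, 7.74%, 4.61% and 4.83% in the mutant tracheas, with control replicate 1 within the range of the mutants. The Hoxd share was between 2.54% and 4.76% in all libraries. The summed Hox TPM was 183 to 271 in the foreguts and 127 to 181 in the tracheas, ranges that did not overlap. These shares are descriptions and were not tested.

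The DNA before the start of 4 of these genes is shown because the comparisons turn on them: *Hoxb1*, *Hoxb4* and *Hoxc4*, which fell from foregut to trachea in both genotypes, and *Hoxa5*, which rose in both. Each run is the 250 bases before the RefSeq start on the gene's strand, from RefSeq on build GRCm38.p6, and 22 of the 39 Hox genes had an entry. The RefSeq start of *Hoxc4* lies inside the longer GENCODE span of the gene. Capitals mark a match on either strand to TGATNNAT, the pattern bound jointly by Pbx and Hox proteins, or to AGGTCA, a nuclear receptor half-site that retinoic acid receptors can bind.
*Hoxb1* chr11:96365508-96365757, plus strand: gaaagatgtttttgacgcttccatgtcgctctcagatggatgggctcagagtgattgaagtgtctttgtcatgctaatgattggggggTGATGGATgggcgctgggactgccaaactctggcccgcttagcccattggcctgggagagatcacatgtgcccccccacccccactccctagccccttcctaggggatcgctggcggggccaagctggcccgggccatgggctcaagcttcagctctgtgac
*Hoxb4* chr11:96318017-96318266, plus strand: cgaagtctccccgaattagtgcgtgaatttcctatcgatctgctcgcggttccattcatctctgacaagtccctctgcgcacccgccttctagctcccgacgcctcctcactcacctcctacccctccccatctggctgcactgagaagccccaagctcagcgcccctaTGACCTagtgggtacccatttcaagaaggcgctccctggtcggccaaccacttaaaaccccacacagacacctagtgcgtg
*Hoxc4* chr15:103034145-103034394, plus strand: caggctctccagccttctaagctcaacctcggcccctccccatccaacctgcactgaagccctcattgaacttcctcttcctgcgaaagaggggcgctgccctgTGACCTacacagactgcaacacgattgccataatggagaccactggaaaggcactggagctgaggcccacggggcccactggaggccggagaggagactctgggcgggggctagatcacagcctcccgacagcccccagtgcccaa
*Hoxa5* chr6:52204588-52204837, minus strand: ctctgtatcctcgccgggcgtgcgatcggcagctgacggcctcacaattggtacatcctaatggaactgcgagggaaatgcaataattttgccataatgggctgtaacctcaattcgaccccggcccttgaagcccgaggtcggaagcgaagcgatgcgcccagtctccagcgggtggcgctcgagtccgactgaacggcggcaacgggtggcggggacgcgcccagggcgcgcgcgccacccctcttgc

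*Hoxb1* holds TGATGGAT starting 162 bases before its start, a letter pattern of the repeats through which *Hoxb1* is known to maintain its own transcription in the mouse hindbrain. *Hoxb4* holds TGACCT, which is AGGTCA read on the opposite strand, 81 bases before its start, and *Hoxc4* holds it 146 bases before its start. *Hoxa5* holds neither. Among 24 Hox windows of this length from the 22 genes, TGATNNAT was in 4 and AGGTCA in 6, and among 32851 windows of all genes they were in 7.68% and 14.0%. The Gli motif GACCACCCA was in none of the 24 Hox windows and in 0.225% of all windows. A match is a stretch of letters, and binding was not measured.

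The design first asks whether the Hox genes differed between mutants and controls at E10.5. In the foregut 16 Hox genes had enough counts to be tested (15 of paralogs 1 to 5, and *Hoxb6*), and none passed an adjusted p of 0.05 in edgeR's quasi-likelihood test, where 0.719% of the 15295 genes tested did (0.314% higher and 0.405% lower). That background moved with single libraries, from 48 higher and 62 lower genes to 0 and 0 without control replicate 1 and to 128 and 98 without mutant replicate 3. Of the Hox genes DESeq2 called 1, *Hoxa5*, and among all 15295 genes it called 362 higher and 434 lower. In edgeR the unadjusted p was under 0.05 for 3 Hox genes, *Hoxa5* and *Hoxa3* among them, and all 3 were higher in the mutants. For counts at an unadjusted p, here and below, the share of all genes is not given. Whether such counts exceed that share was not tested. The median log2 fold change was 0.06 over the 16 Hox genes and 0.03 over all genes tested. Within Hoxa the median was 0.27 over 5 genes, and within Hoxb it was -0.02 over 6.

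*Hoxa5* had 9.65, 10.8 and 12.7 CPM in the control foreguts and 19.1, 14.3 and 18.1 CPM in the mutants. Every mutant was above every control. This was so for 3 of the 16 Hox genes (*Hoxa3* and *Hoxa5* among them) and for 1765 of the 15295 genes tested. Its log2 fold change was 0.64 (SE 0.159, adjusted p = 0.101). In DESeq2 it was 0.63 with an adjusted p of 0.0227, and with 1 library left out it stayed between 0.54 and 0.75 with no call.

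*Hoxa3*, which acts in the development of the thymus and parathyroid, had 32.3, 34.6 and 29.5 CPM in the control foreguts and 36.9, 39.9 and 39.1 CPM in the mutants. The groups did not overlap, and the log2 fold change was 0.27 (SE 0.0847, adjusted p = 0.160). *Hoxb1*, among the 4 smallest p, had 6.34, 12.9 and 13.8 CPM in control foreguts and 8.81, 10.3 and 4.70 CPM in the mutants, overlapping ranges (log2 fold change -0.47, SE 0.360, adjusted p = 0.524). Its log2 fold change lay between -0.75 without control replicate 1 and -0.20 without mutant replicate 3, with no call. The remaining 13 genes tested had log2 fold changes between -0.20 for *Hoxb2* and 0.69 for *Hoxb6*, whose SE was 0.776.

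Other tissue markers moved with genotype in the foregut. Of 12 foregut mesenchyme markers 3 were called lower in the mutants (*Foxf1*, *Foxf2* and *Ptch1*), calls that were lost without control replicate 1, where no gene was called. The list summed to 813 to 1090 TPM in the controls and 560 to 628 TPM in the mutants. The paper describes *Foxf1* and *Gli1*, both on this list, as direct targets of Gli or Hedgehog signalling. A lower sum can therefore come from the repressor or from fewer mesenchyme cells, which cannot be told apart here. Cardiomyocyte markers summed to 29.6 to 45.3 TPM in the control foreguts and to 197, 1130 and 106 TPM in the mutants, with none of 11 tested called. Their part in the Hox values was not tested.

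At E11.5, 13 Hox genes were tested between mutant and control tracheas, 12 of paralogs 1 to 5 and *Hoxd8*. None was called by edgeR's quasi-likelihood test, where 2.5% of the 15376 genes tested were called (1.81% higher and 0.689% lower, which is 279 and 106 genes, against 44 and 16 without control replicate 3 and 947 and 416 without control replicate 1), and 3 Hox genes had an unadjusted p under 0.05 (*Hoxa5*, *Hoxc4* and *Hoxc5*). DESeq2 called *Hoxa5* and *Hoxc4*, and among all 15376 genes it called 617 higher and 304 lower. The median log2 fold change was 0.16 over the 13 Hox genes and -0.01 over all genes tested. Over the Hoxc pair it was 1.23.

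*Hoxa5* had 12.0, 20.1 and 25.7 CPM in the control tracheas and 33.5, 29.0, 34.9 and 29.5 CPM in the mutants. Every mutant was again above every control, as for *Hoxc4* and for 9.44% of all genes tested at this stage. The log2 fold change was 0.72 (SE 0.214, adjusted p = 0.106), close to that of the foregut. DESeq2 gave 0.72 with an adjusted p of 0.0280. Without control replicate 1, the lowest library, the difference was smaller, and over the 7 fits with 1 library left out it ranged from 0.47 to 0.98 with no call.

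*Hoxc4* had 6.07, 1.62 and 2.13 CPM in the control tracheas and 8.74, 10.2, 7.25 and 6.26 CPM in the mutants. The highest control, replicate 1, was just below the lowest mutant on this scale. On the TPM scale the same control had 4.45 TPM and the lowest mutant 3.81 TPM, so the groups overlapped there. The log2 fold change was 1.32 (SE 0.404, adjusted p = 0.114). It passed the threshold in DESeq2 (1.32, adjusted p = 0.0245) and in a fit of all 13 libraries (1.33, adjusted p = 0.0461). Without control replicate 1 the log2 fold change was 2.11 (adjusted p = 0.00325), in a fit that called 947 genes higher and 416 lower, against 279 and 106 with all libraries.

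*Hoxc5*, the neighbour of *Hoxc4* in the cluster, had 3.75, 2.18 and 1.28 CPM in the control tracheas and 3.94, 10.7, 3.28 and 3.24 CPM in the mutants. Control replicate 1 lay within the range of the mutants, and mutant replicate 2 was far above the rest. The log2 fold change was 1.14 (SE 0.497, adjusted p = 0.243). Over single libraries left out it ranged from 0.54 to 1.61, with the adjusted p between 0.100 and 0.550. An exon of *Hoxc5* overlaps *Hoxc10* on the same strand, so its reads are shared in part with a gene that had 2 counts in all. *Hoxd8* followed with a log2 fold change of 1.41 (SE 0.662, adjusted p = 0.273) from 2, 17 and 4 counts in the controls and 16, 11, 25 and 22 counts in the mutants. With 1 library left out it ranged from 0.99 without control replicate 1 to 2.68 without control replicate 2, with no call.

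**Figure D2:**
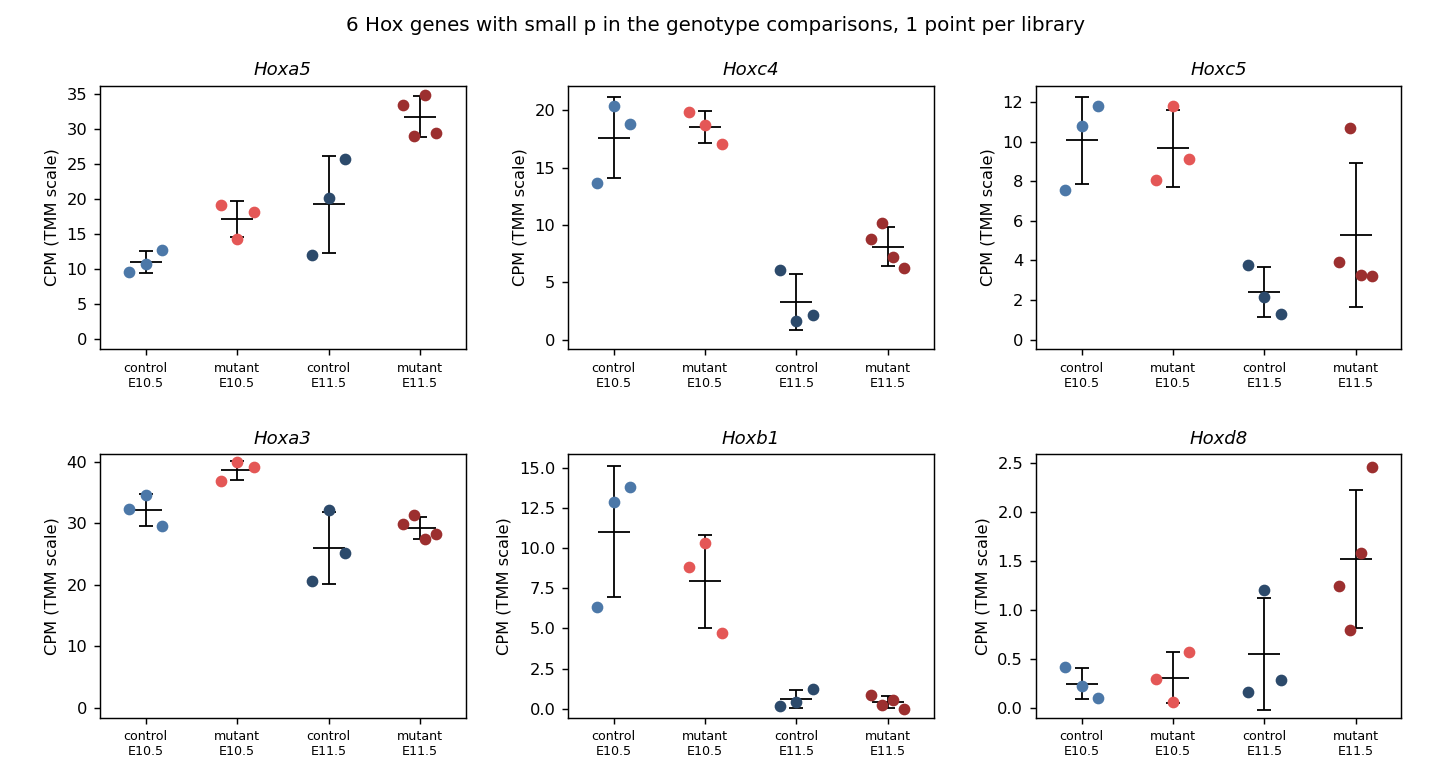
CPM of 6 Hox genes in each of the 13 libraries by group, with the mean and SD of each group as black bars. Points for *Hoxa5* are higher in the mutants than in the controls at both stages (9.65 to 12.7 against 14.3 to 19.1 CPM at E10.5), and *Hoxc4* in control trachea replicate 1 (6.07 CPM) lies apart from the other control tracheas.

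Several tissue markers moved with genotype at E11.5 beside these genes. Of 10 foregut epithelium markers 7 were called higher in the mutant tracheas, and the list summed to 234, 173 and 188 TPM in the controls and to 327, 476, 335 and 267 TPM in the mutants. Of 6 limb bud markers tested 4 were called higher in the mutants (*Alx4*, *Msx2*, *Pitx1* and *Prrx1*). *Foxf1*, which the paper describes as a direct Gli target, was the only 1 of 12 foregut mesenchyme markers called, lower in the mutants. Somite markers summed to 28.9, 19.7 and 18.9 TPM in the control tracheas and to 12.4, 16.4, 12.5 and 9.99 TPM in the mutants, and none of 5 tested was called. Cardiomyocyte markers summed to 79.1 to 320 TPM in the controls and 317 to 2220 TPM in the mutants, with an unadjusted p under 0.05 for 9 of 11 and none called. Markers of intermediate mesoderm and mesothelium summed to 146 to 189 TPM in the controls and 98.3 to 130 TPM in the mutants (of 5 tested, 1 was called higher and 1 lower), and endothelial markers to 122 to 152 and 154 to 204 TPM (1 of 6 called, higher). The part of these tissues in the Hox values was not tested.

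Whether the effect of genotype differed between the stages was tested as an interaction over the 13 libraries. Of 17 Hox genes none was called by edgeR (0.0248% of 16132 genes were) or by DESeq2, and 1 had an unadjusted p under 0.05 in edgeR. This was *Hoxc4*, which had a genotype log2 fold change of 0.08 (SE 0.158) in the foregut and 1.32 in the trachea. The difference was 1.26 (SE 0.471, adjusted p = 0.261), and without control trachea replicate 1 it was 2.05 (adjusted p = 0.00888). *Hoxc5* (1.22, SE 0.610), *Hoxd1* (-1.86, SE 1.37) and *Hoxd8* (1.07, SE 1.14) had the next smallest p. With 1 library left out they ranged from 0.61 to 1.68, from -3.74 to -1.01 and from 0.52 to 2.35, with no call; the values nearest 0 came without mutant trachea replicate 2, control trachea replicate 3 and control foregut replicate 1. For *Hoxd1* this rested on few counts, 5, 0, 1 and 0 in the mutant tracheas against 6, 0 and 11 in the controls. *Hoxa5* had an interaction of 0.09 (SE 0.297, adjusted p = 0.925), from genotype differences of 0.64 and 0.72 that came from separate libraries.

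The second question of the design is how the E11.5 trachea differed from the E10.5 foregut. Day, organ and deposited table change together in it and cannot be told apart. Here and below, a gene said to rise or fall between the stages is one called at an adjusted p under 0.05. Among the controls, 17 Hox genes were tested, and *Hoxa5* rose while 7 genes fell, among them *Hoxb1*, *Hoxb4*, *Hoxb5*, *Hoxb6*, *Hoxc4* and *Hoxc5*. Over all 16132 genes tested 11.2% were higher and 10.1% lower. The median log2 fold change was -0.83 over the Hox genes and 0.03 over all genes. Among the mutants, which share no library with the controls, *Hoxa5* rose and 7 genes fell, among them *Hoxa3*, *Hoxb1*, *Hoxb4*, *Hoxb5*, *Hoxc4* and *Hoxd3*, with 8.12% of all genes higher and 7.4% lower. The median was -0.78 over the Hox genes and -0.01 over all genes. Called or not, 14 of the 17 Hox genes had a log2 fold change below 0 in the controls, and 14 in the mutants. By cluster, 4 of 6 Hoxb genes, 2 of 2 Hoxc genes and 0 of 4 Hoxd genes were called lower in the controls. Without a call, *Hoxd1*, *Hoxd3* and *Hoxd4* were lower there (-0.96, -0.83 and -2.33) and *Hoxd8* was higher (1.15). In the mutants 3 Hoxb, 1 Hoxc and 1 Hoxd gene were called lower. Because the genotype and stage comparisons use the same groups, their values are not independent of each other.

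On the CPM scale the control stages did not overlap for 11 Hox genes that were lower and for *Hoxa2*, which was higher, where 19.8% and 21.8% of all genes were apart in these directions. The mutant stages did not overlap for 10 lower Hox genes and for the higher *Hoxa2*, *Hoxa5* and *Hoxd8*, against 14.1% and 14.0% of all genes.

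**Figure D3:**
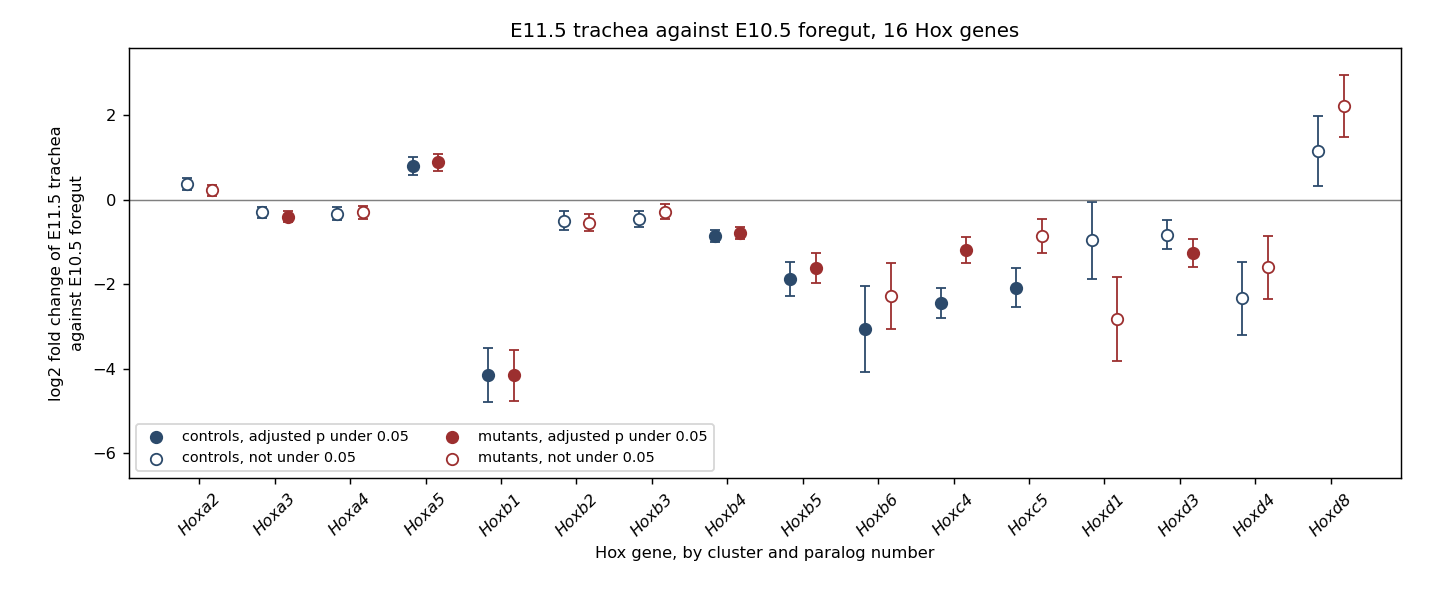
Log2 fold change of E11.5 trachea against E10.5 foregut for 16 of the 17 Hox genes tested, in controls (blue) and mutants (red), with bars of 1 standard error; filled points passed an adjusted p of 0.05. *Hoxa5* is the filled point above 0 in each genotype (0.80 and 0.89), and *Hoxb1* lies lowest at -4.16 in both.

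*Hoxb1*, which marks a hindbrain segment and heart progenitors in the mouse, fell furthest. It had 4.80, 9.48 and 11.78 TPM in the control foreguts and 0.14, 0.34 and 0.94 TPM in the control tracheas, which were 107, 231 and 261 counts against 2, 6 and 17. In the mutants it had 6.67, 7.95 and 3.76 TPM in the foreguts and 0.65, 0.18, 0.45 and 0 TPM in the tracheas. The stages did not overlap in either genotype, and the log2 fold change was -4.16 in controls (SE 0.639, adjusted p = 0.000825) and -4.16 in mutants (SE 0.600, adjusted p = 0.000576). Its cluster neighbour *Hoxb2* had log2 fold changes of -0.50 and -0.54 (adjusted p = 0.127 and 0.0966). *Hoxd1*, at -0.96 and -2.82, was not called (adjusted p = 0.481 and 0.0699).

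*Hoxb4* and *Hoxb5* fell in both genotypes. *Hoxb4* had 22.27, 22.38 and 30.86 TPM in the control foreguts and 12.48, 15.91 and 14.24 TPM in the control tracheas (log2 fold change -0.86, SE 0.151, adjusted p = 0.00189). In the mutants it had 22.73, 21.38 and 30.92 TPM and then 13.76, 14.19, 14.06 and 15.46 TPM (-0.78, SE 0.140, adjusted p = 0.00252). The stages did not overlap. *Hoxb5*, a gene of lung branching and of enteric neural crest, had 27.59, 36.06 and 41.91 TPM in the control foreguts and 8.76, 11.19 and 9.52 TPM in the control tracheas (-1.88, SE 0.402, adjusted p = 0.00552). In the mutant tracheas it had 21.28, 16.41, 9.86 and 5.50 TPM (-1.62, SE 0.360, adjusted p = 0.00924). Without mutant foregut replicate 3, the library with 464 TPM of neural crest and neuron markers, the mutant value was -1.08 (adjusted p = 0.0479). Reads antisense to *Hoxb5* from *Hoxb5os* could not be separated, as the library kit does not mark strand.

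**Figure D4:**
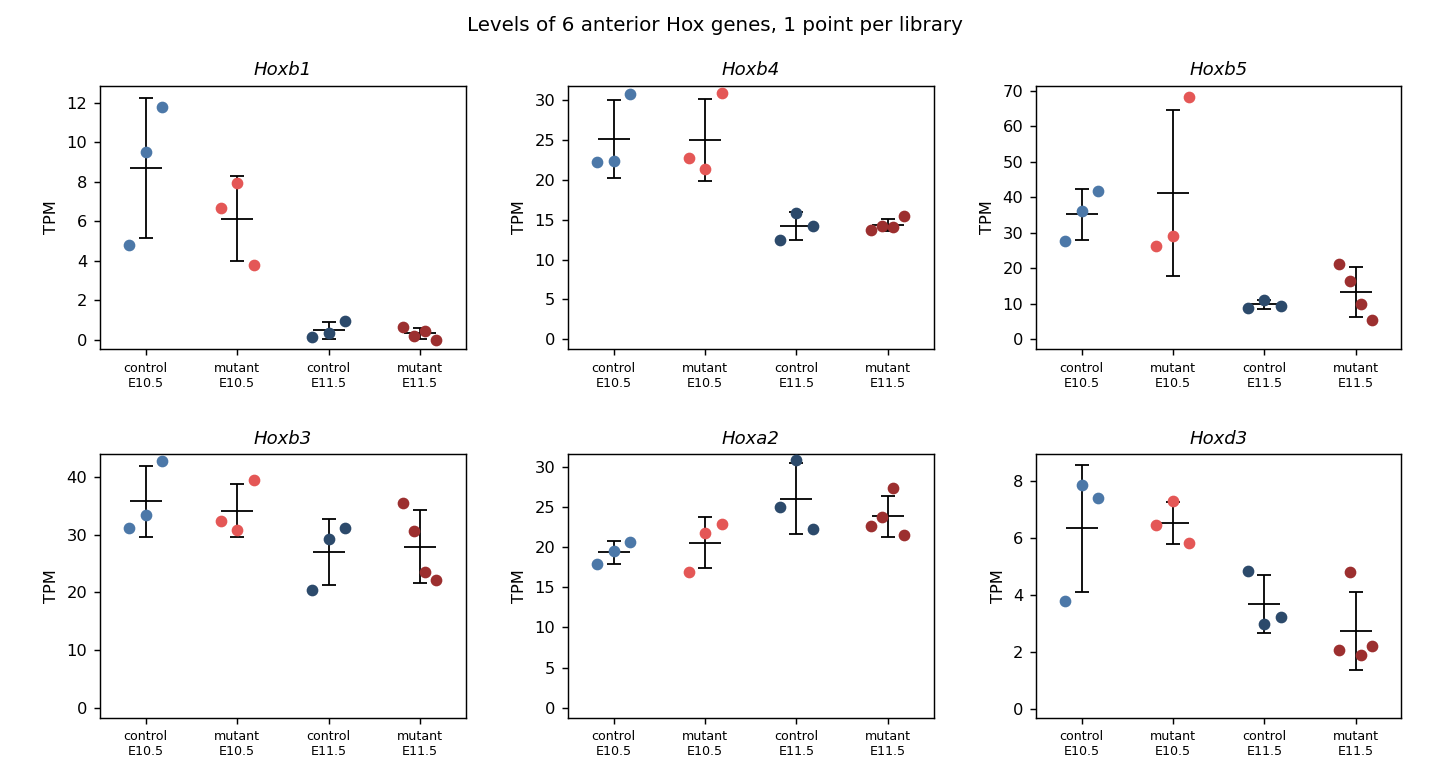
TPM of 6 Hox genes of paralogs 1 to 5 in each of the 13 libraries by group, with the mean and SD of each group as black bars. *Hoxb1*, *Hoxb4* and *Hoxb5* are lower in every trachea than in every foregut of the same genotype (*Hoxb4* at 12.48 to 15.91 TPM against 21.38 to 30.92 TPM), whereas the mutant stages overlap for *Hoxb3*.

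*Hoxc4* fell in both genotypes and *Hoxc5* in the controls, with no interaction called for either. *Hoxc4* had 8.85, 12.70 and 13.79 TPM in the control foreguts and 4.45, 1.11 and 1.43 TPM in the control tracheas (log2 fold change -2.45, SE 0.360, adjusted p = 0.000594). In the mutants it had 12.96, 12.27 and 11.72 TPM and then 5.72, 7.17, 4.96 and 3.81 TPM (-1.19, SE 0.307, adjusted p = 0.0195), which, over single libraries left out, was no longer called without mutant foregut replicate 1 (adjusted p = 0.0607). *Hoxc5* had 4.34, 6.01 and 7.62 TPM in the control foreguts and 2.41, 1.32 and 0.75 TPM in the control tracheas (-2.08, SE 0.461, adjusted p = 0.00709). In the mutants the change was -0.86 (SE 0.401, adjusted p = 0.163). The 2 mutant stages overlapped through trachea replicate 2, which had 6.57 TPM.

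*Hoxa5* went the other way. It had 8.13, 8.80 and 12.03 TPM in the control foreguts and 11.35, 17.97 and 22.27 TPM in the control tracheas, with trachea replicate 1 below foregut replicate 3. In the mutants it had 16.05, 12.20 and 16.06 TPM and then 28.39, 26.32, 30.84 and 23.30 TPM, without overlap. The log2 fold change was 0.80 in controls (SE 0.219, adjusted p = 0.0196) and 0.89 in mutants (SE 0.204, adjusted p = 0.0111). The control call was lost without foregut replicate 1 or 2 or trachea replicate 2 or 3 (0.71, 0.77, 0.76 and 0.53, adjusted p = 0.0785, 0.0675, 0.0644 and 0.0977). The mutant call held without any 1 library.

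The paralog 2 to 4 genes of the Hoxa cluster had smaller log2 fold changes. *Hoxa2* had log2 fold changes of 0.37 in controls (adjusted p = 0.0689) and 0.23 in mutants (adjusted p = 0.259), *Hoxa4* -0.33 and -0.30 (adjusted p = 0.140 and 0.173). *Hoxa3* had -0.30 in controls (adjusted p = 0.129) and -0.40 in mutants (adjusted p = 0.0455), and the mutant call held in 2 of 13 fits with 1 library left out. *Hoxb3* had -0.45 (adjusted p = 0.101) and -0.28 (adjusted p = 0.295). Within Hoxd, *Hoxd3* fell in the mutants, from 6.47, 7.32 and 5.85 TPM to 2.07, 4.80, 1.90 and 2.19 TPM (-1.26, SE 0.321, adjusted p = 0.0185, and adjusted p = 0.0578 or 0.0539 without foregut replicate 2 or trachea replicate 1). In the controls it had 3.78, 7.87 and 7.41 TPM and then 4.86, 2.99 and 3.22 TPM (-0.83, adjusted p = 0.0986). Exons of *Hoxd3* and *Hoxd4* overlap on the same strand, so the split of reads between them is uncertain. *Hoxb6* fell in the controls (-3.06, SE 1.02, adjusted p = 0.0468) from 6, 27 and 15 counts to 3, 0 and 1, a call that held in 5 of 13 fits with 1 library left out, and had -2.28 in the mutants (adjusted p = 0.0638). *Hoxd4* had -2.33 and -1.60 (adjusted p = 0.0681 and 0.164) and *Hoxd8* 1.15 and 2.22 (adjusted p = 0.348 and 0.0578). *Hoxb6* and *Hoxa3* were added to the genes with values after they were seen to be called.

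Tissue markers differed between the stages too. Of the 10 foregut epithelium markers 8 fell in the control tracheas against the control foreguts and *Nkx2-1* rose, and in the mutants 3 fell and *Nkx2-1* rose. The epithelium list summed to 342 to 426 TPM in the control foreguts and 173 to 234 TPM in the control tracheas. Of 12 foregut mesenchyme markers 2 rose and 2 fell in the controls, and of 10 neural crest and neuron markers *Ednrb* rose. In the mutants *Tbx4* and *Tbx5* rose and *Ptch1* fell among the mesenchyme markers, and *Ednrb* rose and *Tubb3* fell among the neural ones. Their part in the Hox changes was not tested.

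Genes that act with the Hox proteins were measured in the same libraries. The 9 TALE cofactors summed to 664 to 873 TPM in a library, and the 39 Hox genes to 127 to 271 TPM. None of 9 tested was called between genotypes in the foregut and none of 8 in the trachea by edgeR, and 1 had an unadjusted p under 0.05 at each stage (*Pknox1* at -0.32 and *Meis1* at -0.29). Between the stages *Pbx3* rose in controls (1.06, SE 0.178, adjusted p = 0.0015) and mutants (0.97, SE 0.169, adjusted p = 0.00227). *Meis3* fell in both (-0.96, adjusted p = 0.00287, and -1.19, adjusted p = 0.000467), as did *Pbx2* (-0.36 and -0.23). *Pknox2* also fell in the controls, and in the mutants *Meis2* fell and *Pknox1* rose.

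Of 17 genes of retinoic acid synthesis, breakdown and reception, 1 of 15 tested was called between genotypes in the trachea and none of 16 in the foregut, where 3 had an unadjusted p under 0.05. The called gene was *Cyp26b1*, an enzyme that breaks down retinoic acid, with 3.51, 3.46 and 2.26 TPM in the control tracheas and 5.34, 6.18, 4.75 and 6.47 TPM in the mutants (log2 fold change 0.99, SE 0.199, adjusted p = 0.0314). No mutant overlapped the controls. Between the stages, of 16 tested, 6 fell and *Dhrs3* rose in the controls. The falls included *Aldh1a1*, an enzyme of synthesis (-4.62), *Crabp2*, a binding protein (-1.34), and *Rara*, a receptor (-0.47). In the mutants 3 fell, *Aldh1a1*, *Crabp2* and *Rara* again, and *Rarg* rose.

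Of 20 Polycomb and Trithorax genes, which hold Hox clusters silent or active, *Bmi1* was the only one called between genotypes, in the foregut. *Bmi1*, a part of Polycomb complex 1, had 25.46, 28.22 and 35.46 TPM in the control foreguts and 16.56, 17.65 and 15.57 TPM in the mutants (-0.81, SE 0.100, adjusted p = 0.0278). That call was lost without control foregut replicate 1, where edgeR called no gene at all between the genotypes. In the trachea none of 20 was called by edgeR, and 5 had an unadjusted p under 0.05. Between the stages 5 fell (*Bmi1* among them, -0.56) and 1 rose in the controls, and 2 rose in the mutants, *Suz12* among them. Of 8 transcription factors and signals known to set Hox expression elsewhere, 3 had enough counts to be tested and *Cdx2* was listed at 0 in every library. None was called between genotypes by edgeR, although 2 had an unadjusted p under 0.05 in the foregut, *Zbtb16* among them (log2 fold change 0.51), and *Zbtb16* had one in the trachea (0.83). *Zbtb16* fell between the stages in both genotypes (-1.64 and -1.31).

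Of 15 non-coding RNAs of the Hox clusters in the tables, 3 had enough counts to be tested. *Hotairm1* had 12.4 ± 2.90 TPM in the control foreguts, 17.2 ± 3.05 TPM in the mutant foreguts, 11.2 ± 2.60 TPM in the control tracheas and 11.1 ± 2.16 TPM in the mutant tracheas. *Hoxaas2* lay between 1.66 and 5.30 TPM and *Haglr* between 0.33 and 2.38 TPM in all libraries. None of the 3 was called in any comparison by edgeR, and 1 had an unadjusted p under 0.05, in the mutant stage comparison. Exons of 10 of the 39 Hox genes overlap a transcript on the opposite strand and those of 9 a gene on the same strand (GENCODE annotation on GRCm38), among them *Hoxa3*, *Hoxb3* and *Hoxb5* in the first group and *Hoxc5*, *Hoxd3* and *Hoxd4* in the second, and unstranded reads of such pairs cannot be told apart.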

How the data were processed

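Total RNA of dissected foregut or trachea was amplified (Ovation RNA-seq, Nextera XT, unstranded) and sequenced as single 75-nt reads. The authors trimmed reads, aligned them to mm10 with Bowtie2 and quantified genes with RSEM 1.3.0; their annotation was not given in the sources used here. Deposited values were estimated counts per gene symbol, already whole numbers, and TPM. The authors scaled TPM for transcript length and depth.

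Genotype was tested within each stage and the stage and interaction contrasts over all 13 libraries with edgeR 4.0.16 (R 4.3.3): filterByExpr, TMM factors, a quasi-likelihood F test and Benjamini-Hochberg adjustment over all genes tested; called means adjusted p under 0.05. SE is the log2 fold change divided by the square root of F. CPM used TMM factors over 13 libraries. Depth was 9.647 to 17.99 M counts, so 3 counts equal 0.167 to 0.311 CPM.

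All 39 Hox genes entered the sums and counts, and some genes are not reported here by name; values by library were given for the most abundant genes of each group, the genes at the edge of expression, genes among the 4 of smallest p in each genotype or interaction contrast and called genes of each stage contrast. Members, lists and rules were chosen with earlier results of these data known. Alternatives were other scaling factors, other filters, DESeq2 1.42.0, limma 3.58.1 on log2(TPM + 1), the replicate number as a block, a log2 threshold of 1, 1 fit for all libraries and leaving out each library. The code was tested on simulated counts, with changed genes drawn from all genes tested. There a true log2 change of 1 was called in 44% of genes at E10.5, 57.3% at E11.5 and 32.2% for the interaction. The lack of a call therefore does not show equal levels. Replicate numbers were not taken as pairs. The methods state 3 replicates, and all 4 mutant trachea libraries were used.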

Additional observations from a re-analysis of the deposited data

Results flagged for a closer look

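Within the 4 mutant tracheas a single library lay far from the others for 2 of the Hox genes whose values were given by library. *Hoxb4* had 27.1 CPM in replicate 4 and 21.6 to 22.4 CPM in the other 3. In TPM the same library was nearer to the rest, at 15.46 against 13.76 to 14.19, and it had the lowest depth of all libraries (9.647 M counts). *Hoxc5* had 10.7 CPM in replicate 2 and 3.24 to 3.94 CPM in the other 3. For both genes the flag was set on CPM. There the gap to the nearest library, as a share of the range, was above Dixon's 95% critical value for 4 samples, which chance exceeds in about 1 in 20 groups. Because many Hox genes were checked in this way, some flags arise by chance. Whether 2 flags exceed that number was not tested.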

How the results depend on the processing

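No Hox gene reversed its direction under any alternative among those followed. Between genotypes, where the main test called none, DESeq2 called 1 Hox gene higher at E10.5 and 2 at E11.5, and a fit of all 13 libraries called 1 higher at E11.5. The single call with a library left out, at E11.5 and for the interaction, came without control trachea replicate 1. With 1 library left out, 0 to 0 Hox genes were called at E10.5 in either direction, 0 to 1 higher and 0 to 0 lower at E11.5, and 0 to 1 higher and 0 to 0 lower for the interaction. Between the stages, a log2 threshold of 1 gave 0 higher in controls, and 0 higher and 4 lower in mutants, by its construction. DESeq2 and limma on TPM each called 2 higher in mutants, against 1; the cause was not tested. With 1 library left out, 0 to 1 rose and 5 to 8 fell in controls, and 1 to 3 rose and 4 to 8 fell in mutants. In controls none rose without foregut replicate 1 or 2 or trachea replicate 2 or 3. In mutants 3 rose without control trachea replicate 1 and 2 without control trachea replicate 2, and 4 fell without mutant foregut replicate 2. The genes at 1 TPM numbered 13 to 15, 14 to 14, 12 to 12 and 13 to 13 in control foreguts, mutant foreguts, control tracheas and mutant tracheas.

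Same-numbered control and mutant libraries deviated together weakly at E10.5 and not at E11.5. At E10.5 their r was 0.0814, 0.142 and 0.176, above that of every other pair (-0.163 to 0.0664). At E11.5 their r was -0.0882, -0.0816 and 0.113, against -0.201 to 0.218 in the other pairs. With the replicate number as a block, 0 Hox genes were called between genotypes or for the interaction, 1 rose and 6 fell in controls, and 1 rose and 4 fell in mutants, against 7. *Hoxc4* and *Hoxa3* in mutants (log2 fold change -1.09 and -0.39, adjusted p = 0.0735 and 0.0686 in edgeR) and *Hoxb6* in controls (-3.04, adjusted p = 0.077) were among the calls lost with the block.

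Over all genes, calls at E10.5 were 48 higher and 62 lower, but 362 and 434 in DESeq2, 7 and 12 in limma, 52 and 30 with the block and 77 and 28 over 13 libraries. At E11.5 they were 279 and 106, but 207 and 126 with library size alone, 617 and 304 in DESeq2, 111 and 46 with the block and 71 and 81 in limma. Between stages they were 1811 and 1633 in controls (1697 and 757 in limma) and 1310 and 1193 in mutants (945 and 1631 with library size alone).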
